A study of Mus musculus with 7 samples.

Results

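The 10 genes Cxcl13, Cxcr5, Ccl19, Lta, Ltb, Ltbr, Bcl6, Il21, Glycam1 and Tnfsf13b act in the organisation of lymphoid tissue or in follicular helper T cells. They were taken by symbol from a table of 22629 rows after its Ensembl identifiers had been matched to mouse gene symbols, and each was found in 1 row. In lymph nodes, and in the lymphoid aggregates that can form in inflamed tissue, lymphotoxins made by lymphocytes act on the lymphotoxin beta receptor of stromal cells, which respond through the kinase NIK by making the chemokines CXCL13, CCL19 and CCL21. CXCL13 draws B cells and follicular helper T cells, which bear CXCR5, into follicles, and CCL19 draws T cells and dendritic cells bearing CCR7 into T cell zones. Follicular helper T cells depend on BCL6 and make IL-21, high endothelial venules admit lymphocytes from the blood, and BAFF, encoded by Tnfsf13b, keeps B cells alive.

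The data are RNA-seq counts of 7 s/c tumors, taken 2 weeks after C57BL/6 hosts had been inoculated with mouse PDA cells. In the control group, 3 tumors (1, 4 and 5) were formed with sgScramble cells, and in the other, 4 tumors (15, 16, 18 and 2) were formed with sgScramble cells that also expressed icOVA, a cytoplasmic form of ovalbumin. The comparison asks how the expression of a foreign antigen by the cancer cells goes with the immune genes of the tumor. All cells were of the 1242 KPC line, from a mouse tumor with alleles activated by Pdx1-Cre, a mutant Trp53 among them, and carried Cas9 with a scrambled guide, while icOVA was inducible by doxycycline in the food. The icOVA cells had in addition been sorted and cloned from single cells, and the methods of the study give a larger inoculum for ovalbumin-inducible tumors than the usual one. If the groups differed in cloning, the vector, doxycycline or the inoculum, the antigen cannot be told apart from these. Whether the sgScramble cells of these tumors were polyclonal, carried the ovalbumin vector, met doxycycline or were inoculated in the same number is not given in the sources used here. By the methods of the study, C57BL/6 mice were bought at 6 weeks of age and kept for 2 weeks before use. The study formed tumors of inducible cells both with and without doxycycline, and which kind, if either, the sgScramble tumors were is not stated for these data. OVA fitted the labels, with 85 to 151 counts in the sgScramble tumors and 3413 to 10750 in the icOVA tumors, and the source of the counts in the sgScramble tumors was not tested. Total counts per tumor were 34723344, 32771160 and 30904855 in the sgScramble tumors and 37510591, 35612477, 34436971 and 32062089 in the icOVA tumors, in the same order. Levels are given as CPM, the count relative to the scaled size of its library. At these totals, 10 counts in a library of median size come to 0.290 CPM.

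The tumors differed in their stroma within each group. The 7 fibroblast marker genes summed to 8024, 17095 and 7595 CPM in sgScramble tumors 1, 4 and 5 and to 28167, 6124, 39110.0 and 9673 CPM in icOVA tumors 15, 16, 18 and 2. Tumors 15 and 18 were thus rich in fibroblast transcripts and tumor 16 was the poorest of all 7. Col3a1, the most abundant of these genes, had a log2 fold change (icOVA minus sgScramble) of 1.10 ± 0.68, where ± gives the SE of a fold change throughout, and an edgeR adjusted p of 0.333. The part that this variation has in the values below was not tested.

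None of the 10 genes passed an adjusted p of 0.05 in edgeR's quasi-likelihood test, in either direction, where 3.36% of the 17489 genes tested were called higher in icOVA tumors and 2.54% were called lower. All 10 passed the filter on low counts. At an unadjusted p below 0.05 in edgeR, 3 of them, Ccl19, Ltb and Il21, were higher and 0 were lower, where 13.4% of all genes tested were higher and 13.8% lower at that p, and DESeq2 and limma-voom each had 4 higher and 0 lower at it. By adjusted p, DESeq2 called 2 of the 10 higher (Ccl19 and Ltb), where it called 8.91% of all genes higher, and limma-voom called 0, where it called 2.96%. The same 3 genes were higher in every icOVA tumor than in every sgScramble tumor, against 11.3% of all genes tested, and 0 of the 10 were lower in every icOVA tumor, against 13.3%, but Il21 passed the filter through the icOVA tumors alone and so could not count as evidence here. The log2 fold change was positive for 8 of the 10 genes and negative for Ltbr and Bcl6, with a median of 0.78 beside -0.0048 over all genes tested. Il21 is included in the counts at an unadjusted p, in these 8 genes and in this median. Its direction there was likewise set by the filter, so it adds nothing to them as evidence. In bulk tumors, more cells of a type and more RNA per cell cannot be told apart. Among the icOVA tumors, tumor 16 had the lowest level for 7 of the 10 genes and tumor 2 for 0.

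**Figure D1:**
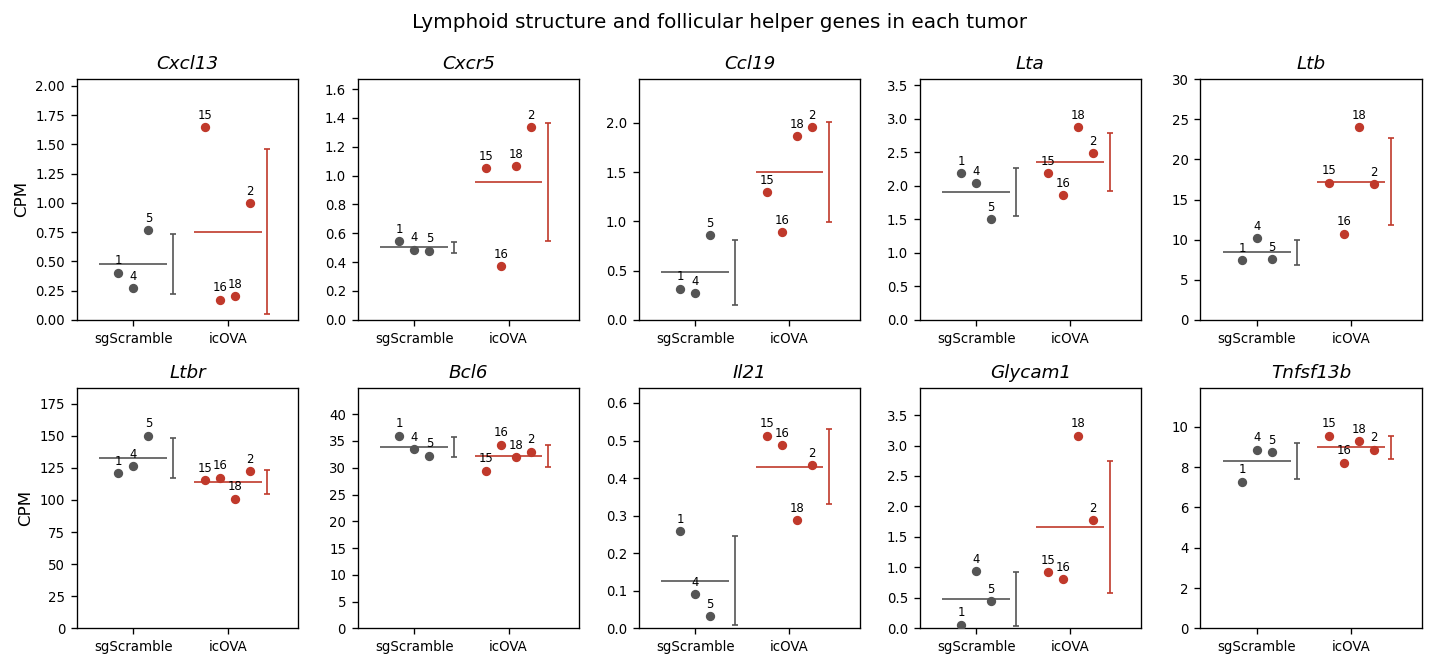
Levels of the 10 genes in CPM (vertical axes, from 0, a different scale for each gene) in 3 sgScramble tumors (grey) and 4 icOVA tumors (red), with each point labelled by its tumor number, a line at the group mean and a bar of 1 SD on either side of it. The points of the groups are apart for Ccl19, Ltb and Il21 and overlap for the other 7 genes.

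Per kilobase of exon, the 10 genes spanned a wide range of levels. Ltbr was the most abundant, at a mean of 56.2 CPM per kb in sgScramble tumors and 48.5 in icOVA tumors. Ltb and Bcl6 came next. Ltb had 5.55 CPM per kb in sgScramble tumors, near the 5.06 of Bcl6, and 11.3 in icOVA tumors, where Bcl6 had 4.81. Over all 7 tumors Ltb ran from 4.92 to 15.9 CPM per kb and Bcl6 from 4.40 to 5.37, so that their ranges overlapped. Lta (1.09 to 2.08 CPM per kb), Tnfsf13b (1.06 to 1.39), Ccl19 (0.315 to 2.26) and Cxcl13 (0.149 to 1.43) had overlapping ranges below these, and so had Glycam1 (0.027 to 1.48). Cxcr5 (0.112 to 0.401) overlapped Ccl19, Cxcl13 and Glycam1 but lay below Lta and Tnfsf13b. Il21 was the least abundant by group mean, at 0.0242 CPM per kb in sgScramble tumors and 0.0819 in icOVA tumors. Its range, 0.00608 to 0.0975, overlapped that of Glycam1.

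Among the chemokine ligands, Ccl19, which guides T cells and dendritic cells, is on chromosome 4 of GRCm38 from 42754525 to 42756577. It had 0.317, 0.273 and 0.863 CPM in sgScramble tumors 1, 4 and 5 and 1.30, 0.888, 1.87 and 1.96 CPM in icOVA tumors 15, 16, 18 and 2. The groups did not overlap, but sgScramble tumor 5 came close to icOVA tumor 16, with 27 and 31 counts. Its log2 fold change was 1.63 ± 0.48 (95% interval 0.52 to 2.75), with an adjusted p of 0.0838 from edgeR and 0.0200 from DESeq2. Without sgScramble tumor 5 the log2 fold change was 2.34 (adjusted p = 0.126 from edgeR), and without sgScramble tumor 4 it was 1.36 (adjusted p = 0.141 from edgeR). These were the highest and lowest values on leaving out a tumor.

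Cxcl13, the follicle chemokine, is on chromosome 5 from 95956951 to 95961068. It had 0.403, 0.273 and 0.767 CPM in sgScramble tumors 1, 4 and 5 and 1.65, 0.172, 0.201 and 0.994 CPM in icOVA tumors 15, 16, 18 and 2. The icOVA tumors 15 and 2 had the highest levels of all and icOVA tumors 16 and 18 the lowest, so that the icOVA group lay on both sides of the sgScramble group. The counts behind these levels were low, from 6 in tumor 16 to 61 in tumor 15. The log2 fold change of 0.65 had an SE of 0.81 and an adjusted p of 0.637 from edgeR, and it turned to -0.080 without icOVA tumor 15. With a 95% interval from -1.23 to 2.54, neither a lower nor a higher level in icOVA tumors was excluded.

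The receptor of this chemokine, Cxcr5, is on chromosome 9 from 44511787 to 44561877. It had 0.547, 0.486 and 0.479 CPM in the 3 sgScramble tumors and 1.05, 0.372, 1.06 and 1.34 CPM in icOVA tumors 15, 16, 18 and 2. The sgScramble tumors were close together, 3 icOVA tumors lay above them all, and tumor 16 lay below them all. Between the groups it differed by a log2 fold change of 0.92 ± 0.42 (SE, edgeR adjusted p = 0.206), and without icOVA tumor 16 it was 1.18 and passed the threshold (adjusted p = 0.0348 from edgeR). Without icOVA tumor 2 the log2 fold change was 0.72 (adjusted p = 0.352 from edgeR). Cxcr5 was highest in tumor 2 and Cxcl13 in tumor 15, and in tumor 18 the receptor had 37 counts and the ligand 7. Cxcr5 shares 110 bases with Bcl9l on the opposite strand, and whether reads were counted by strand is not given in the sources used here, so reads in that stretch cannot be told apart. The same holds for all 2053 bases of Ccl19, which lie within 4930578G10Rik on the opposite strand, for 1137 bases that Il21 shares with the antisense gene Gm12534, and for 3101 bases of Tnfsf13b (Gm44789) and 114 of Bcl6 (Gm37419) on opposite strands. None of these 4 overlapping genes has a row in the table.

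Of the 13 tested genes in a list of lymphoid chemokines, their receptors and oxysterol guidance genes, 0 were called in either direction by edgeR and 4 were called higher by DESeq2, which called 8.91% of all genes higher. At an unadjusted p below 0.05 in edgeR 6 were higher and 0 lower, beside the 13.4% and 13.8% of all genes tested, with a median log2 fold change of 0.79. Cxcr4, the receptor of CXCL12 and the non-member with the smallest p, had 34.1, 38.3 and 34.7 CPM in the sgScramble tumors and 45.4, 46.2, 64.0 and 45.7 CPM in the icOVA tumors. Its log2 fold change was 0.50 ± 0.14 (SE, edgeR adjusted p = 0.0719). Ccl21a, named after its values were seen because it shares its receptor with Ccl19, had 0.345, 11.4 and 0.352 CPM in sgScramble tumors 1, 4 and 5 and 1.40, 3.81, 22.0 and 0.621 CPM in icOVA tumors 15, 16, 18 and 2. It was high in 1 tumor of each group, 4 and 18, where Ccl19 was at its lowest and among its highest levels, and its levels are uncertain because near-identical copies of the gene can share its reads. Ccl21a counts per Ccl19 count ran from 0.407 to 41.7 in sgScramble tumors and from 0.317 to 11.8 in icOVA tumors.

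Lta and Ltb encode the subunits of lymphotoxin, LTα and LTβ, and lie on either side of Tnf on chromosome 17, Ltb from 35194439 to 35196320 and Lta from 35203165 to 35205351. Ltb had 7.45, 10.2 and 7.61 CPM in sgScramble tumors 1, 4 and 5 and 17.1, 10.7, 24.0 and 16.9 CPM in icOVA tumors 15, 16, 18 and 2. Every icOVA tumor was above every sgScramble tumor, by little for tumor 16 (375 counts beside 336 in sgScramble tumor 4) and by most for tumor 18. In edgeR the log2 fold change was 1.03 ± 0.26 (95% interval 0.42 to 1.64), with an adjusted p of 0.0610 from edgeR, 0.00281 from DESeq2 and 0.0911 from limma-voom. Without icOVA tumor 16 it was 1.20 and passed edgeR's threshold (adjusted p = 0.0238). It was lowest without icOVA tumor 18, at 0.83 (adjusted p = 0.0690 from edgeR). Without sgScramble tumor 1 or 5 the adjusted p from edgeR was 0.221 and 0.228.

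Lta had 2.19, 2.03 and 1.50 CPM in the sgScramble tumors and 2.19, 1.86, 2.87 and 2.49 CPM in the icOVA tumors. These groups overlapped, with sgScramble tumor 1 level with icOVA tumor 15 and above tumor 16. Between the groups its log2 fold change was 0.30 ± 0.23 (SE), with a 95% interval from -0.22 to 0.82 and an edgeR adjusted p of 0.424. Tnf, which lies between them and is named for its position, had a log2 fold change of 0.87 ± 0.23 (SE, edgeR adjusted p = 0.0671).

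Within each tumor there were 0.293, 0.199 and 0.197 Lta counts per Ltb count in the controls (tumors 1, 4 and 5) and 0.128, 0.173, 0.120 and 0.147 in the icOVA group (tumors 15, 16, 18 and 2). This ratio, which does not depend on the scaling of the libraries, was lower in every icOVA tumor. Its mean log2 difference, icOVA minus sgScramble, came to -0.69 by an exact permutation test (two-sided p = 0.0571, which is the smallest that 3 and 4 tumors allow, or 0.171 when adjusted over 9 ratios by the Benjamini-Hochberg method), and it ran from -0.79 to -0.50 with each tumor left out. Lta counts per Cd3e count, 0.238, 0.140 and 0.129 in the controls and 0.0622, 0.0874, 0.0978 and 0.0897 in icOVA tumors, differed by -0.97 on the log2 scale with the same p values in the exact permutation test. Ltb counts per Cd3e count overlapped between the groups, with a difference of -0.28 on the log2 scale (p = 0.286 by the exact permutation test). Ltb counts per Ltbr count were higher in every icOVA tumor, by 1.20 on the log2 scale, with the p values of the first ratio, and the other 6 ratios had adjusted p values from 0.514 to 1.0. The 9 ratios were chosen after values had been seen, and none passed the adjusted threshold, which this number of tumors cannot reach.

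Ltbr, the lymphotoxin beta receptor, is on chromosome 6 from 125306571 to 125313885. It had 121, 126 and 150 CPM in the sgScramble tumors and 116, 117, 101 and 123 CPM in the icOVA tumors. The groups overlapped only through icOVA tumor 2, which lay above sgScramble tumor 1. Its difference amounted to a log2 fold change of -0.21 ± 0.10 (SE), with a 95% interval from -0.44 to 0.018 and an edgeR adjusted p of 0.214.

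In a list of 18 lymphotoxin and NIK pathway genes, all tested, 3 were called higher and 0 lower by edgeR, beside 3.36% and 2.54% of all genes, with a median log2 fold change of 0.25. The 3 were Tnfrsf1b, a receptor of TNF (log2 fold change 0.59 ± 0.081, edgeR adjusted p = 0.0230), Birc3, an inhibitor of apoptosis induced by NF-κB (0.45 ± 0.080, edgeR adjusted p = 0.0284), and Tnfrsf14, the receptor of LIGHT and BTLA (0.80 ± 0.16, edgeR adjusted p = 0.0343). None of these 3 is a subunit or a dedicated receptor of lymphotoxin beta. All 3 calls were lost on leaving out sgScramble tumor 1 or 5 or icOVA tumor 15 or 2, and kept on leaving out any other. The leukocyte gene Ptprc was higher as well (1.08 ± 0.18, edgeR adjusted p = 0.0271), and the part of leukocyte content in these values was not tested. Relb and Nfkb2, the NF-κB subunits on which the NIK branch acts, named after their values were seen, both had a log2 fold change of 0.20 (adjusted p = 0.269 and 0.251 from edgeR).

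Promoters were taken from RefSeq (build GRCm38.p6), from 250 bases before to 50 bases after the start that RefSeq gives, for 9 of the 10 genes, all but Cxcr5. A κB motif, GGGNNNNNCC, was sought on either strand, with overlapping matches counted each. It was present in 16686 of 32851 promoters (50.8%) and in 8 of the 11 promoters of these 9 genes. By gene, 7 of the 9 had a match, all but Glycam1 and Tnfsf13b. The promoters of the 3 genes without overlap between the groups are shown, with that of Lta as the neighbour of Ltb. Capitals mark bases within a match.
Ltb, chr17:35194257-35194556, plus strand: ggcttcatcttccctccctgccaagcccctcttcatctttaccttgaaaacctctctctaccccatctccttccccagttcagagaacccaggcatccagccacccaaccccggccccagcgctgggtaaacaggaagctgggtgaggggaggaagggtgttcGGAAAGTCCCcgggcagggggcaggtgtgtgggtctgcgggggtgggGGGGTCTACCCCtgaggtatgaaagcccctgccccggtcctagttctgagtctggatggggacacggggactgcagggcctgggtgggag
Lta, chr17:35205302-35205601, minus strand: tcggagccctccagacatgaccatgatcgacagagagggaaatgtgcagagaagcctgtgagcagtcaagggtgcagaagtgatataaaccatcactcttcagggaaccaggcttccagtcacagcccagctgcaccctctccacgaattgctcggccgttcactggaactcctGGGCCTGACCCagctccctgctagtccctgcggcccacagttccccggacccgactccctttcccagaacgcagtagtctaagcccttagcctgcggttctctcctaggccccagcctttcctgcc
Ccl19, chr4:42756316-42756615, minus strand: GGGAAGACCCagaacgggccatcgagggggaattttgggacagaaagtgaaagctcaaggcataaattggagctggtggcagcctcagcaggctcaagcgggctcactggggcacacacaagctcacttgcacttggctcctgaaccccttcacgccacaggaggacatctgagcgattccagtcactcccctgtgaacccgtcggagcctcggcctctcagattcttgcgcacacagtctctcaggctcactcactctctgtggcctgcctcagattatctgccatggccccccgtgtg
Il21, chr3:37232587-37232886, minus strand: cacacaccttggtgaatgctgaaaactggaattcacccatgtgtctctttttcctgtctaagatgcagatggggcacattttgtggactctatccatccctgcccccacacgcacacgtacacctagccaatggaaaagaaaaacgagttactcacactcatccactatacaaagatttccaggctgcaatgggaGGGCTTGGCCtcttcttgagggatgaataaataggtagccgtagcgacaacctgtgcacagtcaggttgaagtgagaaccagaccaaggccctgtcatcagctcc
The Ltb promoter held 5 matches, 1 starting 87 bases before the RefSeq start and 4 that overlap in a stretch beginning 40 bases before it. The RefSeq starts of Ltb and Ccl19 lie 68 and 212 bases inside the gene positions given above, which are from GENCODE, so that against those the 4 Ltb matches fall within the gene, and those of Lta and Il21 agree. Lta had 2 overlapping matches, Ccl19 had 2 on opposite strands at the same bases, at the far end of its window, and Il21 had 1. A match describes the letters and not binding, which was not tested.

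Bcl6, the transcription factor that defines follicular helper T cells and germinal center B cells but is also made by other cells, is on chromosome 16 from 23965052 to 23988852. It had 36.0, 33.4 and 32.2 CPM in the sgScramble tumors and 29.5, 34.3, 32.0 and 33.0 CPM in the icOVA tumors. The 7 tumors lay close together and the groups overlapped. Bcl6 had a log2 fold change of -0.074 ± 0.080 (SE, edgeR adjusted p = 0.584), and its 95% interval, -0.26 to 0.11, was the narrowest of the 10 genes.

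Il21, a cytokine of follicular helper T cells and of some other activated CD4 T cells, is on chromosome 3 from 37222759 to 37232636. It had 9, 3 and 1 counts in sgScramble tumors 1, 4 and 5, or 0.259, 0.0911 and 0.032 CPM, and 19, 17, 10 and 14 counts in icOVA tumors 15, 16, 18 and 2, or 0.513, 0.487, 0.287 and 0.435 CPM. Every icOVA tumor was above every sgScramble tumor, but tumor 18 exceeded sgScramble tumor 1 by a single count. It passed the filter on low counts through the icOVA tumors. Relative to total counts, without scaling, it reached the level of 10 counts in a median library in 4 of 4 icOVA tumors against 0 of 3 sgScramble tumors. Tumor 18 was just at that level, and its 0.287 CPM is relative to the scaled size. A gene kept in this way had to be higher in the icOVA tumors. In the fit the log2 fold change of Il21 was 1.70 ± 0.57 (SE), with a 95% interval from 0.39 to 3.02 and an edgeR adjusted p of 0.108. It was 2.73 without sgScramble tumor 1 and 1.28 without sgScramble tumor 5 (adjusted p = 0.296 from edgeR). Il21 was not tested without icOVA tumor 15 or 16, when it no longer passed the filter.

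A list of follicular helper genes was taken beside these members. Of its 18 tested genes, Bcl6, Il21 and 16 others, 10 were called higher and 0 lower by edgeR (3.36% and 2.54% of all genes tested), and 12 were above in every icOVA tumor (11.3% of all genes), with a median log2 fold change of 1.02. Icos, a costimulatory receptor, had 11.9, 13.6 and 10.9 CPM in the sgScramble tumors and 36.2, 32.1, 40.8 and 28.8 CPM in the icOVA tumors, which gave a log2 fold change of 1.51 ± 0.14 (SE, edgeR adjusted p = 0.0170). Slamf6, an adhesion receptor of lymphocytes, had a log2 fold change of 1.09 ± 0.14 (SE, edgeR adjusted p = 0.0230). Pdcd1, which encodes PD-1, was also called, as were Batf, Il21r, Sh2d1a, Cd40, Btla, Cd40lg and Cd200, which are named because they complete the count. The 12 genes above in every icOVA tumor were these 10, Il21 and Prdm1. Prdm1, also named to complete the count, encodes a repressor that opposes BCL6, so its rise does not speak for follicular helper T cells. It had a log2 fold change of 0.52 ± 0.16 (SE, edgeR adjusted p = 0.0927). Cd40lg, like Il21, passed the filter on low counts through the icOVA tumors alone (4 of 4, and 0 of 3 sgScramble tumors), so neither adds to these counts as evidence.

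Most of these are genes of activated T cells in general, and Cd40 and Il21r are also expressed by B cells and myeloid cells. The markers of T cells moved in the same direction, with 9 of 10 called higher by edgeR (3.36% of all genes) and a median log2 fold change of 1.26. Their summed level was 117, 183 and 142 CPM in sgScramble tumors 1, 4 and 5 and 403, 254, 357 and 318 CPM in icOVA tumors 15, 16, 18 and 2, and Cd8a was the most abundant. Whether the list of follicular helper genes differed from T cell genes was not tested. The calls of this list fell to 0 on leaving out sgScramble tumor 1 or 5 or icOVA tumor 15, each of which left no call in the whole table, and to 1 on leaving out icOVA tumor 2.

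**Figure D2:**
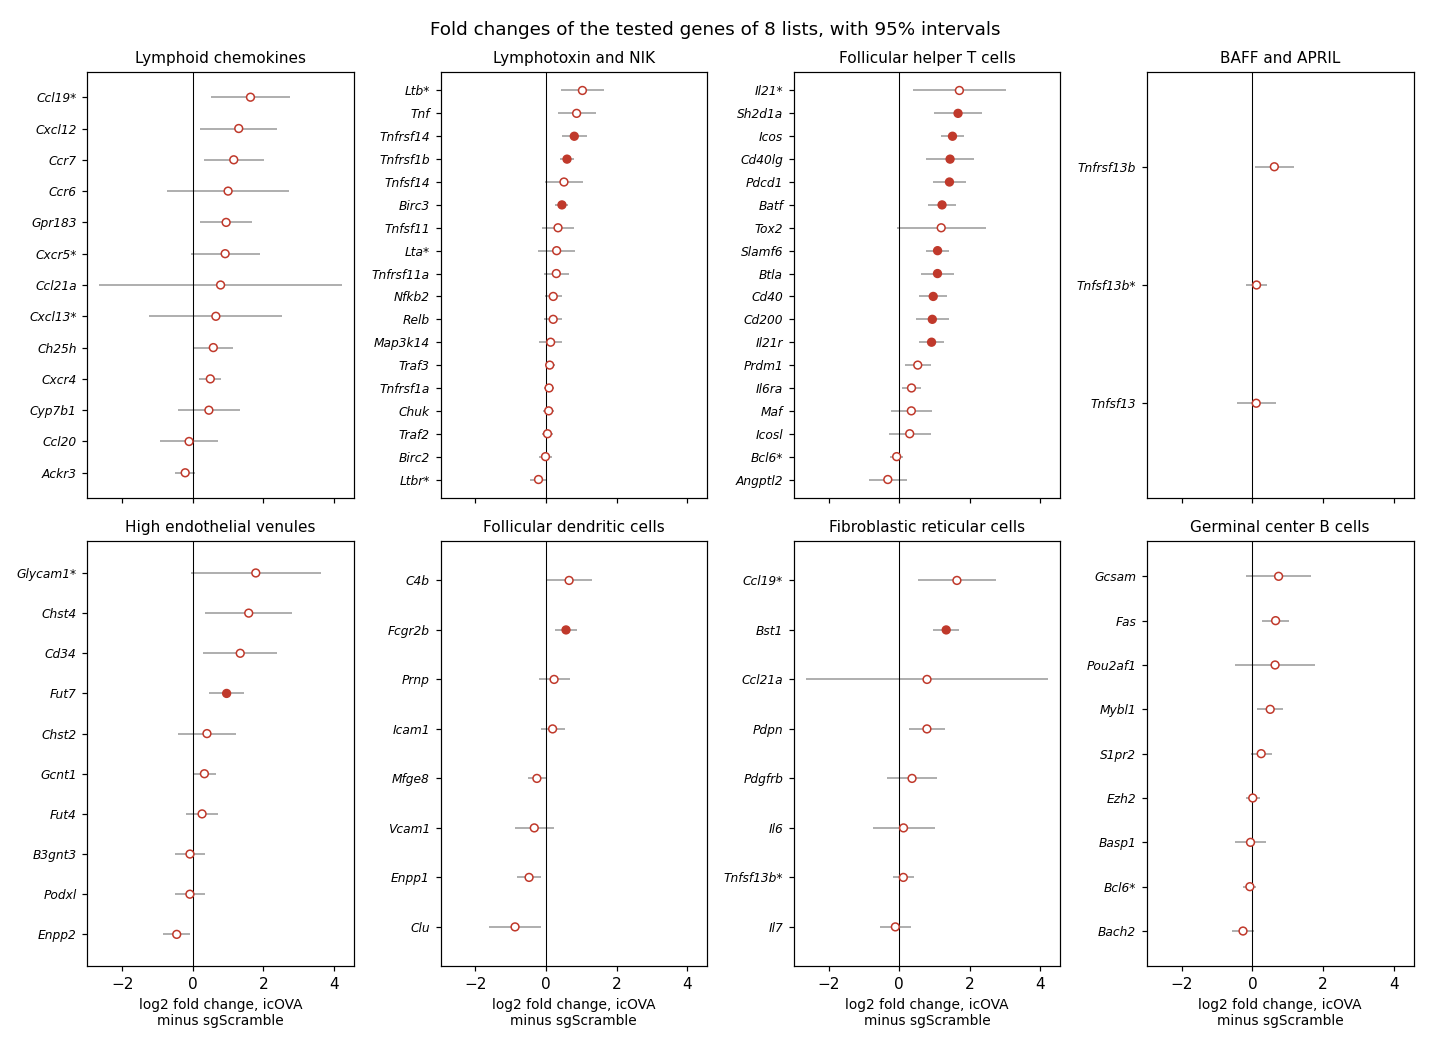
Log2 fold changes (horizontal axes, icOVA minus sgScramble) of the tested genes of 8 lists, 1 gene per row, with lines for 95% intervals from edgeR, filled points for genes with an adjusted p below 0.05 and asterisks on the 10 genes described above. Filled points are most frequent among the follicular helper genes, 10 of 18 with Cd40lg, which passed the filter through the icOVA tumors alone, and none is left of 0.

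Scaling the libraries to Ptprc, which encodes CD45 of leukocytes, in place of TMM moved the median log2 fold change of all genes to -1.10, and scaling to the T cell markers moved it to -1.18. Relative to Ptprc, Ltb had a log2 fold change of -0.058, and Il21 (0.65), Ccl19 (0.48) and Glycam1 (0.79) had positive ones, with adjusted p values from 0.223 to 0.849 from edgeR for these 4 genes. Lta had -0.78 (edgeR adjusted p = 0.0388) and Tnfsf13b -0.98 (adjusted p = 0.0022 from edgeR). Ltbr and Bcl6 had -1.32 and -1.16. Since 80.4% of all genes were called lower on this scale, a call there says little of a single gene. Taking off the median of all genes largely undoes this scaling and returns values near those with TMM, so it adds no evidence. Lta, Tnfsf13b, Ltbr and Bcl6 then differed by 0.32, 0.11, -0.22 and -0.058. Ltb differed by 1.04 (1.03 with TMM), Ccl19 by 1.57, Glycam1 by 1.89, Cxcr5 by 0.91 and Cxcl13 by 0.52. Il21, which passed the filter through the icOVA tumors alone, differed by 1.74.

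Glycam1 encodes a mucin-like adhesion molecule made by high endothelial venules and is on chromosome 15 from 103562759 to 103565081. It had 2, 31 and 14 counts in sgScramble tumors 1, 4 and 5, or 0.0575, 0.941 and 0.447 CPM, and 34, 28, 110 and 57 counts in icOVA tumors 15, 16, 18 and 2, or 0.918, 0.802, 3.16 and 1.77 CPM. Tumors 18 and 2 lay above all others, while tumors 15 and 16 were just below sgScramble tumor 4. The log2 fold change of 1.78 had an SE of 0.79, a 95% interval from -0.051 to 3.62 and an adjusted p of 0.194 from edgeR, and the lowest and highest values on leaving out a tumor were 1.26 (sgScramble tumor 1) and 2.74 (sgScramble tumor 4).

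Glycam1 is also a milk protein gene of the mammary gland, which lies under the skin. Of the 3 mammary markers analysed here, Csn3 had at most 6 counts and Lalba at most 4 counts in any tumor. Ltf, the most abundant, which neutrophils also express, had 6.04, 4.98 and 20.3 CPM in the sgScramble tumors and 6.91, 4.38, 1.61 and 13.7 CPM in the icOVA tumors, and was lowest in tumor 18, where Glycam1 was highest. The other 4 genes of the mammary list, Csn1s1, Csn1s2a, Csn2 and Wap, had no row in the table, and whether mammary tissue had a part in Glycam1 was not tested. Skin markers were low as well, summing to 2.16 to 2.68 CPM in sgScramble tumors and 1.80 to 2.85 CPM in icOVA tumors, and Krt10 was the most abundant.

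In a list of 10 tested genes of high endothelial venules and their ligands, 1 was called higher and 0 lower by edgeR (3.36% and 2.54% of all genes), with a median log2 fold change of 0.36. It was Fut7, a fucosyltransferase that leukocytes express too, so that it is not confined to the venules (log2 fold change 0.96 ± 0.21, edgeR adjusted p = 0.0427), and the call was lost with limma-voom (adjusted p = 0.0514), with no filter on low counts (0.0519) and on leaving out any tumor but 16. Chst4, a sulfotransferase of these venules that was named after its values were seen, had 3.22, 1.09 and 2.88 CPM in the sgScramble tumors and 11.1, 3.35, 4.46 and 9.88 CPM in the icOVA tumors, and was highest in tumors 15 and 2 where Glycam1 was highest in 18 and 2. Its log2 fold change was 1.58 ± 0.53 (SE, edgeR adjusted p = 0.111). At an unadjusted p below 0.05 in edgeR 3 of the 10 genes were higher and 1 was lower, against 13.4% and 13.8% of all genes. The lower one was Enpp2, with a log2 fold change of -0.46 ± 0.17 (SE, edgeR adjusted p = 0.131), also named after its values were seen. Madcam1, the addressin of mucosal venules, had at most 6 counts in any tumor and was not tested. Of the 6 endothelial markers, 0 were called by edgeR and 5 were higher at an unadjusted p below 0.05, where 13.4% of all genes tested were. They summed to 226, 291 and 202 CPM in the sgScramble tumors and 441, 226, 588 and 366 CPM in the icOVA tumors, with Pecam1 the most abundant, and their part in the levels of Glycam1 was not tested.

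Tnfsf13b, the gene of the B cell survival factor BAFF, is on chromosome 8 from 10006467 to 10039072. It had 7.28, 8.87 and 8.72 CPM in the sgScramble tumors and 9.56, 8.22, 9.28 and 8.86 CPM in the icOVA tumors. The groups overlapped and all tumors but sgScramble tumor 1 were above 8 CPM. BAFF transcripts thus had a log2 fold change of 0.12 ± 0.12 (SE), with a 95% interval from -0.17 to 0.40 and an edgeR adjusted p of 0.581. Of the 3 tested genes of the BAFF and APRIL system 0 were called by edgeR or DESeq2, with 1 higher at an unadjusted p below 0.05 (13.4% of all genes), Tnfrsf13b. It encodes the receptor TACI and had a log2 fold change of 0.62 ± 0.24 (SE, edgeR adjusted p = 0.145).

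Lists of genes of the cells that would receive or organise these signals were also taken, and a few markers of B cells and of follicular dendritic cells were scarce. Of 6 tested B cell markers, 0 were called by edgeR and 1 was higher at an unadjusted p below 0.05, near the 13.4% of all genes. The log2 fold change was positive for 5 of the 6 and negative for 1, with a median of 0.71 beside -0.0048 over all genes tested. The 1 at an unadjusted p below 0.05 was Cd22 (0.80 ± 0.21, edgeR adjusted p = 0.0623), named after its values were seen. Ms4a1, which encodes CD20, had 6, 4 and 8 counts in sgScramble tumors and 16, 6, 12 and 8 counts in icOVA tumors. The B cell markers summed to 15.5, 24.9 and 17.2 CPM in the sgScramble tumors and 37.7, 21.1, 43.3 and 23.6 CPM in the icOVA tumors, and Ebf1, which stromal cells also express, was the most abundant. There were 2.71, 2.29 and 0.625 Cxcr5 counts per Cd79a count in the sgScramble tumors and 1.50, 2.17, 1.61 and 1.39 in the icOVA tumors, a difference of 0.063 on the log2 scale (p = 0.914 by the exact permutation test).

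Of 9 tested germinal center B cell genes, 0 were called by edgeR and 2 by DESeq2 (8.91% of all genes higher), and 2 were higher at an unadjusted p below 0.05 in edgeR, beside 13.4% of all genes. Fas, the one with the smallest p, had a log2 fold change of 0.66 ± 0.16 (SE, edgeR adjusted p = 0.0560). Of 8 tested follicular dendritic cell genes 1 was called higher by edgeR (3.36% of all genes), Fcgr2b (log2 fold change 0.57 ± 0.13, edgeR adjusted p = 0.0477), an Fc receptor that macrophages and B cells express as well. This call was lost with total counts (adjusted p = 0.0526), the upper quartile (0.0549) and no filter on low counts (0.0532), and on leaving out tumor 1 (0.194), 5 (0.202), 15 (0.109) or 2 (0.0910). In this list the median log2 fold change was -0.037, with 4 genes positive and 4 negative, and 2 were higher and 3 lower at an unadjusted p below 0.05 in edgeR, where 13.4% and 13.8% of all genes were. Those 3 were Clu (-0.88), Enpp1 (-0.48) and Mfge8 (-0.26), named after their values were seen, and Clu and Enpp1 were lower in every icOVA tumor. Clu had a mean of 4765 CPM in sgScramble tumors and 2592 CPM in icOVA tumors. Which cells the transcripts of these 3 genes came from was not tested. Cr2 and Fcer2a, defining markers of follicular dendritic cells, had 0 to 6 counts in each tumor. Of 8 fibroblastic reticular cell genes, among them Ccl19 and Tnfsf13b, 7 had a positive log2 fold change, with a median of 0.57, 3 were higher at an unadjusted p below 0.05 in edgeR (13.4% of all genes) and 3 were above in every icOVA tumor (11.3% of all genes). Of the 8, 1 was called higher by edgeR, Bst1 (log2 fold change 1.33 ± 0.16, edgeR adjusted p = 0.0230), which myeloid cells also express. Its call was lost on leaving out tumor 1 (edgeR adjusted p = 0.114), 5 (0.122), 15 (0.0725) or 2 (0.0614). Bst1 was highest in icOVA tumor 16, at 104 CPM, the tumor with the lowest sum of fibroblast markers, and which cells its transcripts came from was not tested.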

How the data were processed

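The authors deposited raw counts per gene, whole numbers without normalization, in 1 table for the 7 tumors. Per the labels, polyA RNA was taken and libraries were amplified for 12 cycles, and the submitters' processing notes name the mm10 build. The methods of the study name a kit for stranded libraries of total RNA, so the selection of the RNA is not settled. The aligner, the counting tool and whether the counting used the strand are not given in the sources used here. Symbols, positions and exon lengths came from GENCODE M21 (GRCm38), in which 22414 rows had a symbol. No pair of tumors within a group had counts within sampling noise of each other. The labels give separate tumors, and p values measure the spread between them.

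Low genes were removed with filterByExpr of edgeR 4.0.16 (R 4.3.3; a count of at least 10 and a total of at least 15), and library sizes were set by TMM. The groups were compared by edgeR's quasi-likelihood test, with no covariate, with Benjamini-Hochberg adjustment over every gene tested and a threshold of 0.05. The SE is the log2 fold change divided by the square root of F. For log2 CPM the prior count was 2. Within-tumor ratios were compared by exact permutation tests in scipy 1.17.1 (two-sided p as double the one-sided). The test was checked on simulated counts, drawn independently for each gene with the same dispersion for all. That check does not cover variation shared by many genes of a tumor, such as that of the stroma. Alternatives were DESeq2 1.42.0, limma-voom (limma 3.58.1), total counts, the upper quartile, other filters, robust dispersion, scaling to Ptprc or the T cell markers, and leaving out each tumor. Leaving out tumors for the ratios was added after the data had been seen.

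The members and lists were chosen with earlier results of these data known. Named genes were the 10 members, up to 3 called genes with the smallest adjusted p in each pathway list or else the gene with the smallest p, the most abundant gene of each marker list, OVA, Ptprc, Cd3e, Ms4a1 and Krt19. A few genes chosen beforehand are not reported here, and after the data had been seen they were taken out of the lists and of their counts. Other genes are said to be named after their values were seen or to complete a count. List genes without a row in the table, such as Il4 and Tnfrsf17, were not analysed here.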

Additional observations from a re-analysis of the deposited data

Results flagged for a closer look

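Among the 4 icOVA tumors, 1 tumor lay far from the other 3, by the gap to its neighbour over the range of the group (Dixon's test), for 4 of 39 genes examined. Chance flags about 1 in 20 groups, or about 1.95 of 39, and none of the 4 is one of the 10 genes described above. Tumor 18 was the highest for Fcgr2b, at 8.22 log2 CPM, with 7.88, 7.87 and 7.89 in tumors 15, 16 and 2 (gap over range 0.959). It was also the highest for Cxcr4, at 6.00 log2 CPM where the others had 5.51, 5.53 and 5.52 (gap over range 0.950), and for Krt10, at 1.24 log2 CPM where the others had 0.79, 0.73 and 0.74 (gap over range 0.882), a skin keratin with 80 counts there. Tumor 2 was the lowest for Tnfrsf1b, at 7.42 log2 CPM where the others had 7.53, 7.52 and 7.54 (gap over range 0.873), where the whole range was small.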

How the results depend on the processing

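DESeq2 called 1558 genes higher and 1278 lower where edgeR called 588 and 444, and it called 2 of the 10 members higher where edgeR called 0. The list calls with DESeq2 were 4 higher for the lymphoid chemokines (0 with edgeR), 5 for the lymphotoxin genes (3), 12 for the follicular helper genes (10), 3 for the venules (1), 3 for the fibroblastic reticular cells (1), 2 for the germinal center B cells (0), and 1 higher and 2 lower for the follicular dendritic cells (1 and 0). With each tumor left out, the genes called higher ran from 0 to 1014, those called lower from 0 to 716, the members called higher from 0 to 2 and the follicular helper genes called higher from 0 to 10. The 2 members were Cxcr5 and Ltb without icOVA tumor 16, and nothing was called when tumor 1, 5 or 15 was removed, although 3087, 2936 and 3415 genes then had an unadjusted p below 0.05 in edgeR. Without icOVA tumor 2, 6 genes were higher and 2 lower.

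Relative to Ptprc the log2 fold changes of Cxcl13 (-0.58), Cxcr5 (-0.19), Lta (-0.78), Ltb (-0.058) and Tnfsf13b (-0.98) reversed, and relative to the T cell markers so did Cxcl13 (-0.66), Cxcr5 (-0.32), Lta (-0.91), Ltb (-0.17) and Tnfsf13b (-1.06), as a scale that itself was higher in icOVA tumors makes them do. Cxcl13 ran from -0.080 without icOVA tumor 15 to 1.15 without sgScramble tumor 5. Of the other named genes, Krt19 (0.059 with edgeR) was -0.0028 with limma-voom and ran from -0.079 (icOVA tumor 15 removed) to 0.25 (icOVA tumor 18 removed), and Ltf (-0.65) ran from -1.27 (icOVA tumor 2 removed) to 0.27 (sgScramble tumor 5 removed). For these 3 genes the cause was not tested. Of 66 other values of the members with all tumors kept, 64 had the same direction and side of the threshold and 2 were stronger, and with each tumor left out 65 were the same and 2 stronger. Of 196 values of the other named genes with all tumors kept, 180 were the same, 10 stronger and 5 weaker, and of 196 with each tumor left out 138 were the same, 8 stronger and 48 weaker, that is with the call lost. Among them Fut7 lost its call with limma-voom and with no filter, and Fcgr2b with total counts, the upper quartile and no filter. At least 10 counts in every tumor left 6 members tested, without Cxcl13, Ccl19, Il21 and Glycam1. No paired analysis was made, because the labels do not say which tumors would form pairs. A figure legend of the study speaks of paired cells for this comparison, without saying which tumors belong together.

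Depth limits Il21, Glycam1, Cxcl13, Ccl19 and Cxcr5, whose counts were low, and 3 against 4 tumors limit every test. The members and the lists come from 1 experiment in which the antigen is not separable from the cloning of the cells, the vector, doxycycline or the inoculum wherever the groups differed in these.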

Other observations

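Plasma cell genes were not among the members. Of 5 tested, 3 were called higher by edgeR (3.36% of all genes), Mzb1, Irf4 and Jchain. Mzb1, which acts in antibody secretion, had 0 counts in each sgScramble tumor, so that it passed the filter on low counts through the icOVA tumors alone and its call is not evidence of a difference on its own, and 24, 17, 27 and 49 counts in icOVA tumors 15, 16, 18 and 2. Jchain, the joining chain of polymeric antibodies, had 26, 17 and 12 counts in sgScramble tumors 1, 4 and 5 and 88, 77, 143 and 242 counts in the icOVA tumors, and both were highest in tumor 2. These genes were named after their values were seen. Sdc1, the most abundant gene of the list, is also expressed by epithelial cells and had 496, 458 and 525 CPM in the sgScramble tumors and 340, 442, 286 and 382 CPM in the icOVA tumors (adjusted p = 0.101 from edgeR). Derl3, the remaining gene of the 5, had 0.489, 0.729 and 0.799 CPM in the sgScramble tumors and 0.189, 0.458, 0.460 and 0.435 CPM in the icOVA tumors, so that 2 of the 5 were lower in every icOVA tumor (Derl3 by -0.80 on the log2 scale, with an edgeR adjusted p of 0.206).

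Among the other lists, 2 of 7 genes of naive lymphocytes, 2 of 8 macrophage genes and 1 of 7 genes of mature dendritic cells were called higher by edgeR, beside 3.36% of all genes, and none was called lower. The mature dendritic cell gene is Cd40, which is also in the follicular helper list. None of the 7 fibroblast markers or the 7 PDA epithelium markers was called, with 0 of each at an unadjusted p below 0.05 in edgeR. The epithelial markers summed to 4704, 4462 and 4518 CPM in the sgScramble tumors and 4751, 5070.05, 2909 and 4545 CPM in the icOVA tumors, with the lowest sum in tumor 18.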
